A study of Mus musculus with 12 samples.

Results

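The genes described here are a set of 35 that mark endothelial cells of most vessels, chosen by symbol: 14 that encode junction, adhesion and surface proteins, 14 that encode receptors and signalling proteins, and 7 that encode transcription factors. All 35 have a probe on the array under the platform annotation, with 63 probes of 45281 and 35 of 19057 gene symbols on the array. A probe counted as measured where its detection p-value was under 0.05 on at least 2 arrays. By that limit 49 probes and 30 genes were measured, 12 of the junction and surface group, 12 of the signalling group and 6 factors. The other 5, Erg, Clec14a, Calcrl, S1pr1 and Ecscr, were detected on no array, so their probes give no level for or against expression. Of the 30, 29 were detected on all 12 arrays and Myct1 on 8.

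The arrays hold total RNA from whole hearts of mice (adult males, strain C57Bl/6J), with 1 array per heart, in a cross of genotype and virus. VEGFR1, the receptor encoded by Flt1, was deleted in endothelial cells of Flt1 flox/flox mice with tamoxifen and Cdh5-Cre-ERT2, a Cre recombinase whose promoter is that of Cdh5, itself 1 of the 35 genes. An adeno-associated virus (AAV) injected i.p. carried VEGF-B, a ligand of VEGFR1, or a scramble control. The 4 groups were WT + AAV-Scramble (n = 3, WT Scramble below), VEGFR1 del + AAV-Scramble (n = 3, VEGFR1 del Scramble), WT + AAV-VEGF-B (n = 2, WT VEGF-B) and VEGFR1 del + AAV-VEGF-B (n = 4, VEGFR1 del VEGF-B). All groups received a virus. The mouse age in weeks, and whether the wild-type mice carried Cre or flox alleles or received tamoxifen, are not given in the sources used here.

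Endothelial cells line every vessel and are joined by adherens and tight junctions, in which VE-cadherin (Cdh5), PECAM-1 and claudin-5 hold neighbouring cells together and set how permeable the wall is. Receptors such as the angiopoietin receptor Tek, its partner Tie1 and the TGF-beta family co-receptor endoglin (Eng) keep the layer quiescent or let it grow. ETS, SOX and bHLH family factors switch these genes on together during development and keep them on in the adult. In the heart a dense capillary bed runs between cardiomyocytes, so that whole-heart RNA carries a share from endothelial cells. In such bulk tissue, more cells of a type and more RNA per cell cannot be told apart, and a level below is that of the whole heart.

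The sequence before the start of a gene is shown for 4 genes of the set whose levels are described below, because the factors of the set bind short motifs of known letters. The RefSeq promoter table (GRCm38.p6) holds 17 of the 35 genes, with 22 starts. The genes printed are those held that were higher with VEGF-B in VEGFR1 del hearts with the smallest p, namely Robo4, Rasip1, Eng and Egfl7. Egfl7 has 3 starts, and the one listed first is printed. Each run gives the 250 bases before the start, 5′ to 3′, and capitals mark motif letters found on either strand. Searched were CAGGAA, which is a core of ETS sites, CCGGAA, which is another such core, AGATAA for the family of Gata2, ATTGTT for SOX factors, GTAAACA for forkhead factors, and TGGGAA for RBPJ.
Robo4 (chr9:37401722-37401971, plus strand): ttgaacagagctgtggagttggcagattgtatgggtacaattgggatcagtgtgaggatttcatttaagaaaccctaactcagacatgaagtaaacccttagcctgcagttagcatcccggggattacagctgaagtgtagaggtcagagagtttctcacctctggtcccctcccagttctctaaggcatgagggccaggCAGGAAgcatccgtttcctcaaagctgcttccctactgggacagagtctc
Rasip1 (chr7:45627287-45627536, plus strand): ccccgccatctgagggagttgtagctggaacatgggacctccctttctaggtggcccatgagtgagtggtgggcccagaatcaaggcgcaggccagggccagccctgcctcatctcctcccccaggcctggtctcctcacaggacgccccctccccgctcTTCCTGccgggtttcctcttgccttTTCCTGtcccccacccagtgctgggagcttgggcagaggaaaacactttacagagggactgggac
Eng (chr2:32646345-32646594, plus strand): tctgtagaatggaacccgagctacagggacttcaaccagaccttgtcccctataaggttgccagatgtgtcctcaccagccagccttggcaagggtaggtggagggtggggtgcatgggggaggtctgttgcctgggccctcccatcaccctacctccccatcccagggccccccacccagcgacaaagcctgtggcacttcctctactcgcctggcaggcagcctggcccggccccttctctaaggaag
Egfl7 (chr2:26580833-26581082, plus strand): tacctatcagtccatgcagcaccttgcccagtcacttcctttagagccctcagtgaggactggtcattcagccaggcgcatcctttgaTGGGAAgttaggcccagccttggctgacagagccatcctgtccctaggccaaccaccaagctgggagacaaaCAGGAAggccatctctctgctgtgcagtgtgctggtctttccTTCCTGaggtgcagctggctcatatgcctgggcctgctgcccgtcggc

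Robo4 held CAGGAA once, 50 bases before its start, counted from the motif's first base. Rasip1 held it on the opposite strand at 90 and 65 bases, and Egfl7 held it at 90 bases and, on the opposite strand, at 48. Egfl7 also held TGGGAA at 162 bases, and the Eng window held none of the 6 motifs. CAGGAA stood in 14 of the 22 starts of the set (63.6%), against 25.7% of all 32851 promoter windows of that length in the table, and by gene in 13 of 17. The other ETS core searched, CCGGAA, stood in 1 of 22 (4.55%, against 12% of all). ATTGTT stood in 5 of 22 (22.7%, against 9.42%), AGATAA in 3 (13.6%, against 9.99%), TGGGAA in 5 (22.7%, against 21.6%) and GTAAACA in 0 (against 3.17%). The 2 ETS cores and the RBPJ core end in the same 4 letters, and a hit of one is never a hit of another. Starts of 1 gene can overlap, so the starts are not separate promoters in every case. A match is a description of letters and not a bound site.

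The median signal of an array ran from 98.7 to 111.5, and 16685 to 18210 probes were detected per array. Flt1, the deleted gene, gave a log2 signal of 10.79 to 10.91 in WT Scramble, 11.22 and 11.51 in WT VEGF-B, 8.19 and 8.46 in VEGFR1 del Scramble replicates 1 and 2, and 8.93 to 9.47 in VEGFR1 del VEGF-B. The library labelled VEGFR1 del Scramble replicate 3 gave 11.56, against its label. Counts of calls and medians of the set that use its group are therefore given with it and without it. Values of single genes and of the other gene lists are mostly given with it only. In the authors' second table the quantiles match within each of 3 sets of arrays and differ between them. The method behind that table is not stated, and these are called the authors' sets below. Set 1 holds all WT Scramble hearts and VEGFR1 del Scramble replicates 1 and 2. Set 2 holds the WT VEGF-B hearts and the doubted library, and set 3 the VEGFR1 del VEGF-B hearts. Apart from that library, each virus therefore lies in sets of its own, and VEGF-B and set cannot be told apart. The number of hearts limits the precision of all values.

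Across the 30 measured genes the same picture recurred on nearly every row. For each gene the mean of WT Scramble was taken as 0, and the median of the 30 deviations was then read on each array. It was 0.04, -0.02 and -0.03 on the log2 scale in the WT Scramble hearts and 0.67 and 0.60 in the WT VEGF-B hearts. It was 0.30 and 0.41 in VEGFR1 del Scramble replicates 1 and 2 and 0.71 in the doubted library, and 1.02, 0.89, 0.99 and 0.86 in the VEGFR1 del VEGF-B hearts. WT Scramble was thus lowest on this median and VEGFR1 del VEGF-B highest, with no overlap between these groups. By group mean, WT Scramble was lowest for 29 of the 30 genes and VEGFR1 del VEGF-B highest for 28. The full order WT Scramble, VEGFR1 del Scramble, WT VEGF-B, VEGFR1 del VEGF-B held for 24 genes. The doubted library exceeded both other replicates of its group for 27 of 30 genes. It lay nearer the WT VEGF-B mean than the mean of its own 2 group mates for 28 of 30. For the counts by group mean, by order and for this library, the share of all genes was not computed. They are therefore not read as particular to the set.

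**Figure D1:**
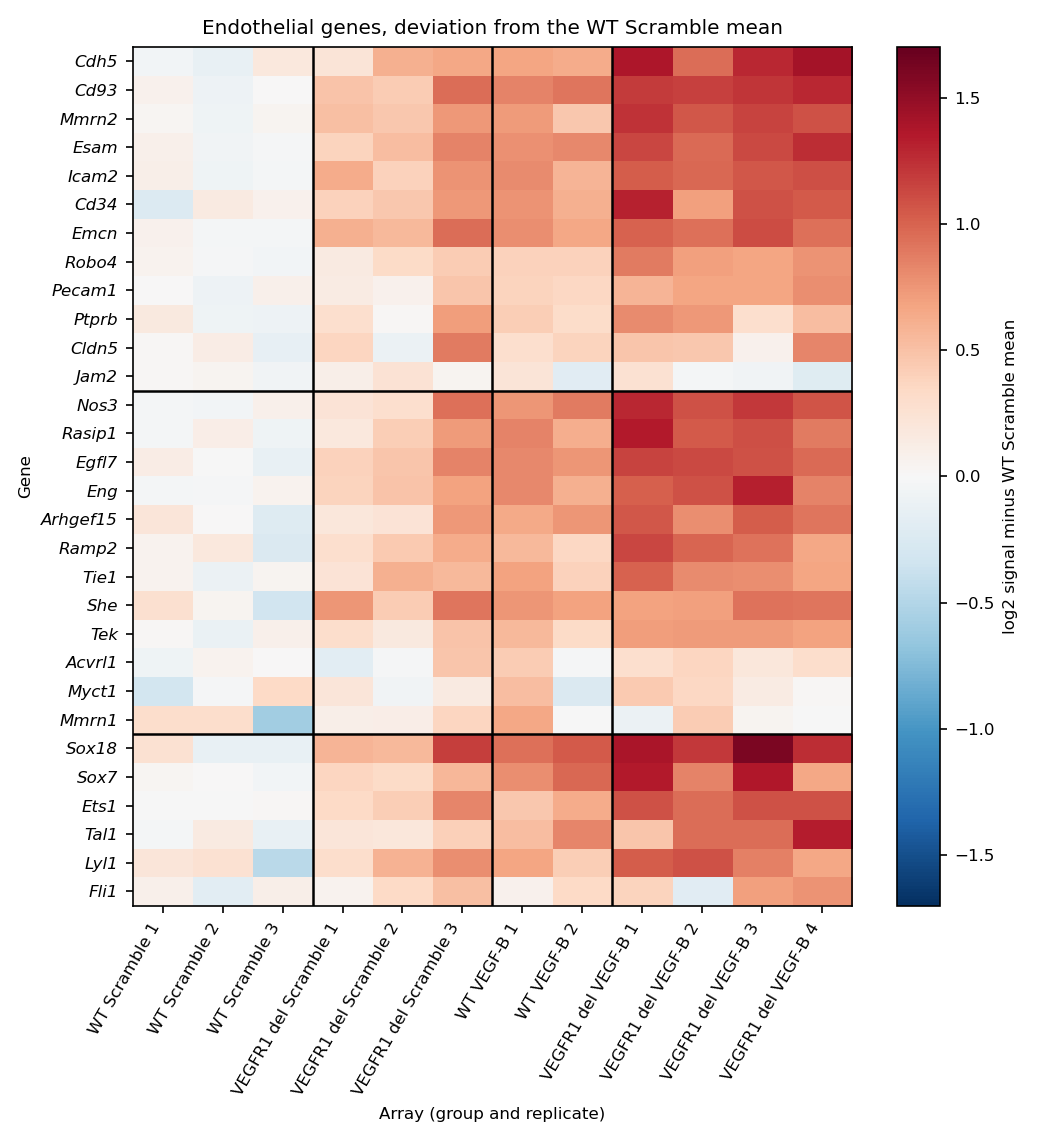
Deviation of the log2 signal of each of the 30 measured endothelial genes (rows, grouped from top to bottom as junction and surface, receptors and signalling, transcription factors) from the mean of the 3 WT Scramble arrays, on each of the 12 arrays (columns). The VEGFR1 del VEGF-B columns are red in most rows and pale for Jam2, Mmrn1 and Myct1.

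The first question is what VEGF-B did in wild-type hearts. By group, 5 of 12 junction and surface genes, 4 of 12 signalling genes and 2 of 6 factors were called higher with VEGF-B, and 0 were called lower. Of the 30 genes, 11 were called higher at an adjusted p under 0.05 (limma), against 1.75% of all 14240 genes tested, while 0.246% of all genes were called lower. Both VEGF-B hearts exceeded all 3 controls for 25 members, against 17% of all genes. All 30 estimates lay above 0, against 46.4% of all genes, with a median log2 fold change of 0.62 against -0.02 over all genes. The genes called were Esam, Icam2, Emcn, Cd93 and Mmrn2 among the junction and surface genes, Eng, Nos3, Egfl7 and Rasip1 among the signalling genes, and Sox7 and Sox18 among the factors.

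Sox18, a SOX F factor of vessel and lymphatic development, gave log2 signals of 9.51, 9.13 and 9.13 in WT Scramble and 10.19 and 10.30 in WT VEGF-B (probe ILMN_2645321). Both VEGF-B hearts lay above all 3 controls, and the log2 fold change was 0.99 (SE 0.19, adjusted p = 0.023), a 1.99-fold rise. Sox7, a factor of the same family that acts in vessel formation, gave 8.98, 8.96 and 8.91 against 9.74 and 9.92 (ILMN_2889482), a rise of 0.88 (SE 0.19, adjusted p = 0.034) with no overlap. Cd93, a surface glycoprotein of endothelial adhesion, read 10.74, 10.58 and 10.68 in WT Scramble and 11.51 and 11.57 in WT VEGF-B (ILMN_1226329). Its groups were far apart, at 0.87 (SE 0.14, adjusted p = 0.0153), the smallest adjusted p of the set in this comparison. Nos3, the endothelial nitric oxide synthase, gave 8.42, 8.41 and 8.54 against 9.20 and 9.34 (ILMN_2788593). The rise was 0.82 (SE 0.18, adjusted p = 0.0349), again with both VEGF-B hearts above all controls.

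The other genes called in wild-type hearts rose by 0.59 (Mmrn2, an extracellular matrix partner of CD93) to 0.79 (Esam, a cell adhesion molecule of tight junctions). Emcn, a sialomucin of capillaries and veins, rose by 0.73 (SE 0.13, adjusted p = 0.0173), and Egfl7, a secreted factor of the vessel wall, by 0.78 (SE 0.14, adjusted p = 0.0173). Cdh5 was at 0.65 (SE 0.17, adjusted p = 0.0652) and Pecam1 at 0.37 (SE 0.13, adjusted p = 0.175), and neither passed. The calls rest on few hearts: 0 members were called without WT Scramble replicate 2, 1 without replicate 3 and 7 without replicate 1. Of all genes, 23, 46 and 145 were called higher in these fits. Without WT VEGF-B replicate 1 or 2, which leaves 1 heart, the members' median less that of all genes was 0.61 and 0.69. With the authors' set as a block, possible only through the doubted library, 0 members were called and their median was 0.26. Without that library 14 members were called, against 2.43% of 14116 genes, with the same median of 0.62.

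**Figure D2:**
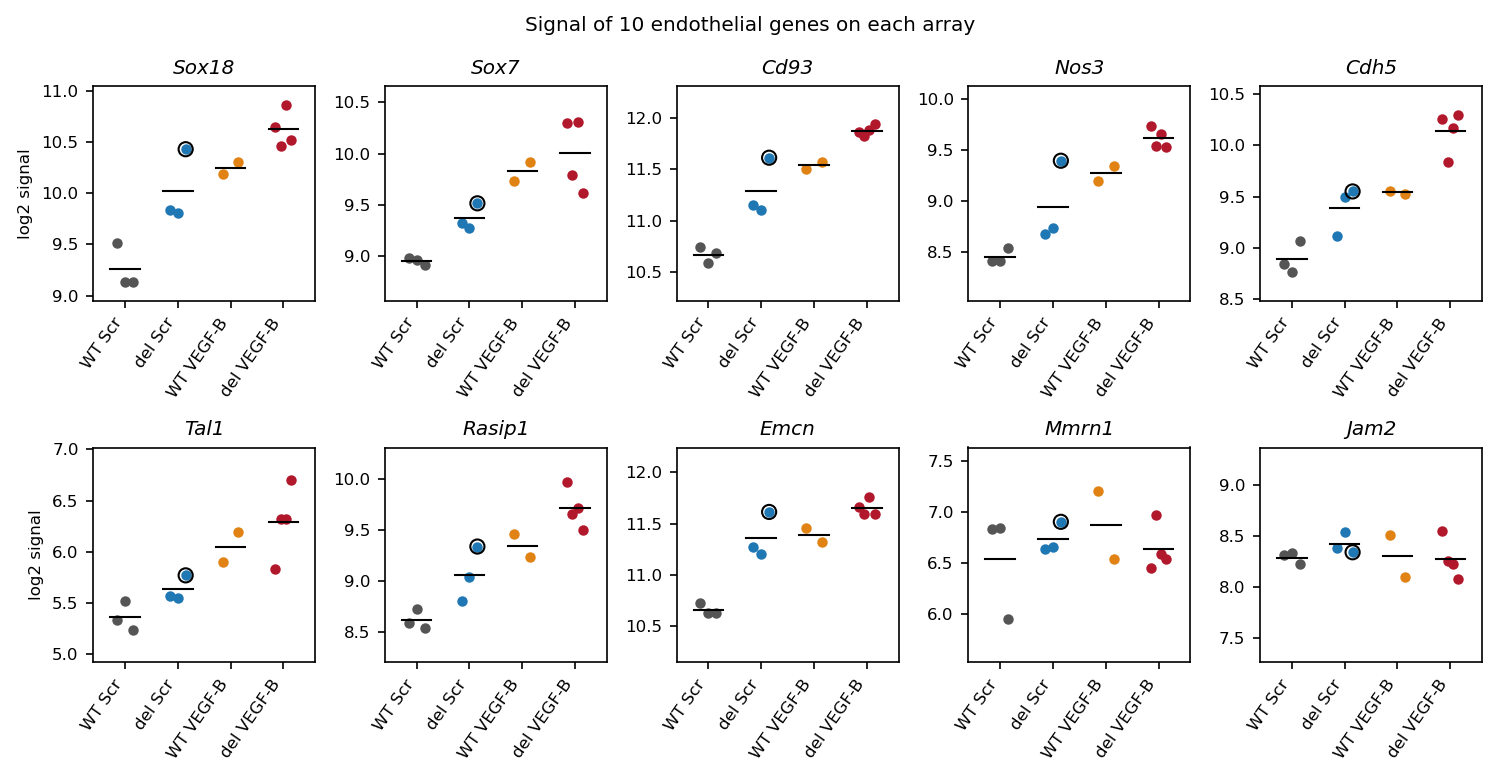
Log2 signal of 10 endothelial genes on each array by group (Scr is scramble virus, del is VEGFR1 deletion), with 1 point per heart, black lines at the group means and a circle around the library labelled VEGFR1 del Scramble replicate 3. Each panel spans 2.1 log2 units; the WT Scramble hearts lie lowest for the first 8 genes, and the groups overlap for Mmrn1 and Jam2.

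The second question is what VEGF-B did in VEGFR1-deleted hearts, read from VEGFR1 del VEGF-B against VEGFR1 del Scramble. Cdh5, the VE-cadherin gene, had the highest estimate, followed by Nos3, Tal1 and Rasip1. Of the 30 genes, 16 were called higher and 0 lower, against 2.82% and 1.79% of all genes. The values did not overlap for 19, against 8.98% of all genes, and the median log2 fold change was 0.46 against -0.01. The estimate was above 0 for 28 members, against 48.6% of all genes. Called were Cdh5, Pecam1, Esam, Icam2, Cd93, Mmrn2 and Robo4 of the junction and surface genes, Tek, Eng, Nos3, Egfl7, Arhgef15 and Rasip1 of the signalling genes, and Ets1, Sox7 and Tal1 of the factors.

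Cdh5, the VE-cadherin of adherens junctions, gave 9.11, 9.50 and 9.55 in VEGFR1 del Scramble and 10.26, 9.84, 10.17 and 10.30 in VEGFR1 del VEGF-B (ILMN_2771550). All 4 VEGF-B hearts lay above all 3 controls, a rise of 0.76 (SE 0.14, adjusted p = 0.0156). Nos3 read 8.68, 8.74 and 9.40 in the controls, the last of these the doubted library, and 9.74, 9.54, 9.66 and 9.53 with VEGF-B. The rise was 0.68 (SE 0.15, adjusted p = 0.0261) with the library and 0.90 (SE 0.11, adjusted p = 0.00238) without it. Tal1, a bHLH factor of blood and endothelial fate, gave 5.57, 5.55 and 5.77 against 5.83, 6.32, 6.32 and 6.70 (ILMN_2839788). Its groups were separated by a narrow gap, at 0.66 (SE 0.17, adjusted p = 0.0428). The Tal1 probe was dim, with a signal of 110.8 to 187 before correction. Its call was kept in 10 of 23 alternative runs, where the estimate ran from 0.26 to 0.83. Rasip1, a Ras-interacting protein needed for vessel lumens, read 8.80, 9.04 and 9.34 against 9.97, 9.66, 9.71 and 9.50 (ILMN_2740217), a rise of 0.65 (SE 0.14, adjusted p = 0.0242) without overlap.

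Receptor genes of the angiopoietin and TGF-beta pathways are given next. The 4 genes above were picked as the called members of largest change, so other called members lie below them by that choice. Eng rose by 0.55 (SE 0.12, adjusted p = 0.0271) and Tek by 0.40 (SE 0.10, adjusted p = 0.0445), while Tie1 was at 0.36 (SE 0.12, adjusted p = 0.11). The Tek call was kept in 9 of 23 alternative runs, the fewest of the called members, and in 1 of 12 fits without 1 array. Calls of Arhgef15 and Sox7 were kept in 11 and 12 of the 23, and that of Eng in 17. Robo4, a roundabout receptor that restrains vessel leak, rose by 0.46 (SE 0.10, adjusted p = 0.0237), and Ets1, an ETS factor, by 0.52 (SE 0.12, adjusted p = 0.0272). The calcitonin receptor-like partner Ramp2 was at 0.47 (SE 0.14, adjusted p = 0.0692) and Sox18 at 0.60 (SE 0.16, adjusted p = 0.0517), both short of the threshold.

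Without the doubted library 20 members were called, against 4.71% of all genes, with a median of 0.56, and Sox18, Emcn, Cd34 and Ramp2 were the members added. Without VEGFR1 del Scramble replicate 1 or 2, each of which leaves that library as 1 of 2 controls, 0 members were called. Of all genes, 23 and 19 were then called higher. Without VEGFR1 del VEGF-B replicate 1 or 3 the count of members was 4, against 160 and 182 of all genes called higher. Without replicate 2 or 4 it was 10, against 264 and 300 of all genes. The median of the members was 0.41 or higher in each of these fits.

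The other 2 members had estimates below 0 in VEGFR1-deleted hearts. Jam2, a junctional adhesion molecule, gave 8.39, 8.54 and 8.34 in VEGFR1 del Scramble and 8.55, 8.26, 8.23 and 8.08 in VEGFR1 del VEGF-B (ILMN_1227559). The groups overlapped, at -0.14 (SE 0.13, adjusted p = 0.566). Mmrn1, a multimerin of platelets and endothelium, read 6.64, 6.66 and 6.90 against 6.45, 6.97, 6.59 and 6.54 (ILMN_1232435), at -0.10 (SE 0.22, adjusted p = 0.849). Neither Jam2 nor Mmrn1 passed in any comparison, nor did Cldn5, Acvrl1, Myct1 or Fli1. For Jam2 all 4 measured probes lay between -0.15 and 0.18 over the 5 comparisons of groups.

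**Figure D3:**
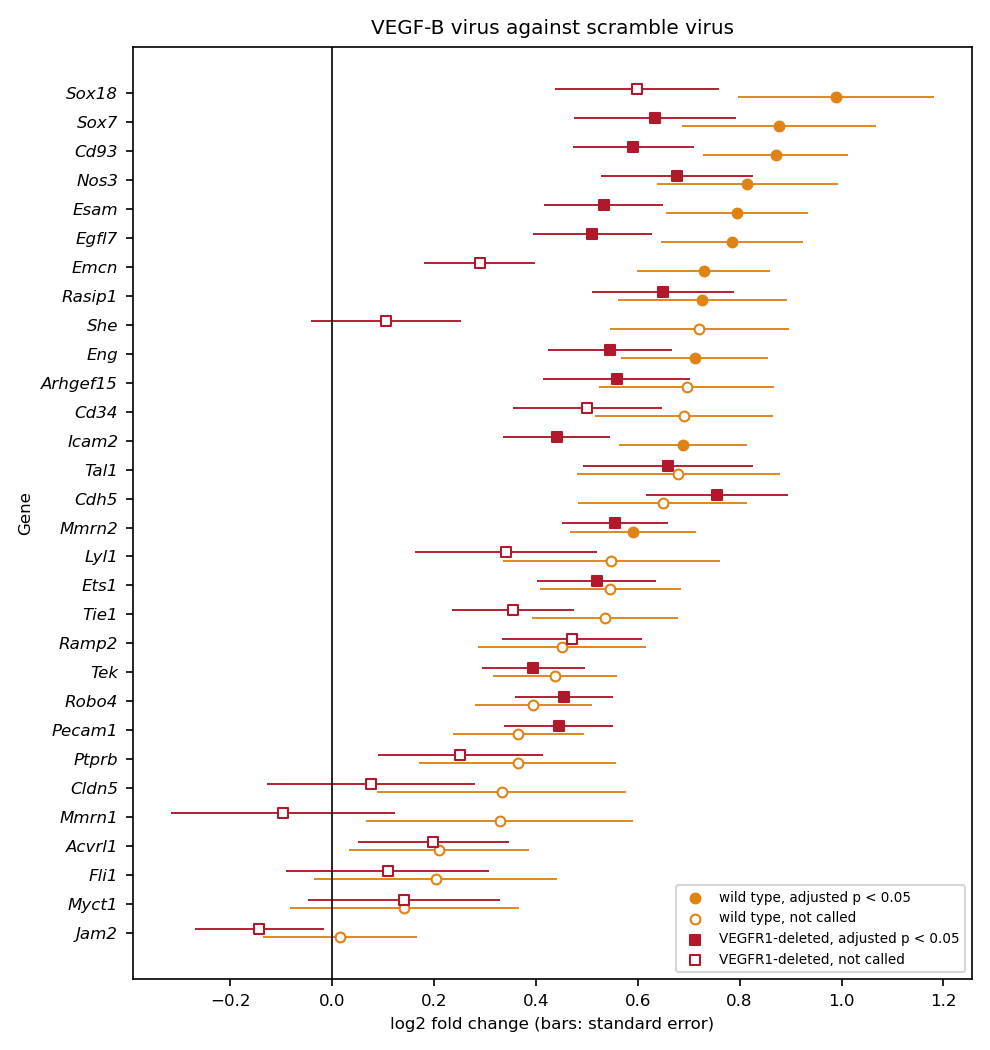
Log2 fold change of VEGF-B virus against scramble virus for the 30 measured endothelial genes in wild-type (circles) and VEGFR1-deleted hearts (squares), with bars for the standard error and filled symbols at an adjusted p under 0.05. The wild-type estimates run from 0.02 (Jam2) to 0.99 (Sox18), and most of the VEGFR1-deleted estimates lie to their left.

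The comparisons of VEGF-B in the 2 genotypes use separate hearts, although they share 1 estimate of the spread. Of the set, 9 genes were called higher in both, 81.8% of the 11 in wild type and 56.2% of the 16 in VEGFR1 del, against 132 genes of the whole array, 53% and 32.9% of those lists. The 9 were Esam, Icam2, Cd93, Mmrn2, Eng, Nos3, Egfl7, Rasip1 and Sox7. The difference between the genotypes was tested directly as an interaction, and 0 members and 0 of 14240 genes were called by limma. At an unadjusted p under 0.05 the interaction had 2 members and 5.04% of all genes. These members were She, an adaptor with an SH2 domain (-0.61, SE 0.23, adjusted p = 0.976, 95% interval -1.11 to -0.12), and Emcn (-0.44, SE 0.17, adjusted p = 0.976, 95% interval -0.81 to -0.07). Their sign means a smaller estimated response in VEGFR1-deleted hearts, but 2 of 30 is near the share of all genes. Without the doubted library 1 member and 5.76% of all genes had an unadjusted p under 0.05. No difference between the genotypes is read from these 2 genes. The median interaction over the set was -0.15 with all arrays and 0.00 without the doubted library, so over the set the lean to the left in the plot of both responses was seen with that library and not without it.

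The third question is what the deletion did under the scramble virus. Every member lay higher in VEGFR1 del Scramble than in WT Scramble by group mean, but 0 were called. Over all genes, 0.0492% were called higher and 0.00702% lower. The 30 estimates ran from 0.09 to 0.77 with a median of 0.46, against 47.6% of all genes above 0 and a median of -0.01. The values did not overlap for 22 genes, against 8.15% of all. At an unadjusted p under 0.05 there were 21 members and 11.4% of all genes (limma). The smallest adjusted p belonged to Emcn, which is named after its values were seen. Emcn gave 10.73, 10.63 and 10.63 in WT Scramble and 11.27, 11.21 and 11.61 in VEGFR1 del Scramble (ILMN_1259365). All 3 deleted hearts lay above all 3 controls, at 0.70 (SE 0.12, adjusted p = 0.0521).

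Without the doubted library, both groups of this comparison lie in 1 of the authors' sets. Of the 30 estimates, 29 were then above 0, against 48.7% of all genes, and the median was 0.35. Called higher were 0 members, against 0.0425% of all genes. Emcn was then at 0.58 (SE 0.11, adjusted p = 0.12) and Nos3 at 0.26 (SE 0.11, adjusted p = 0.534), after 0.48 (SE 0.16, adjusted p = 0.239) with the library. Within the authors' set 1 alone the median was 0.36 and 0 members were called. Without VEGFR1 del Scramble replicate 2, 2 members were called, and with a trended and robust variance 10 were. Of all genes, 16 and 174 were called higher in these fits.

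**Figure D4:**
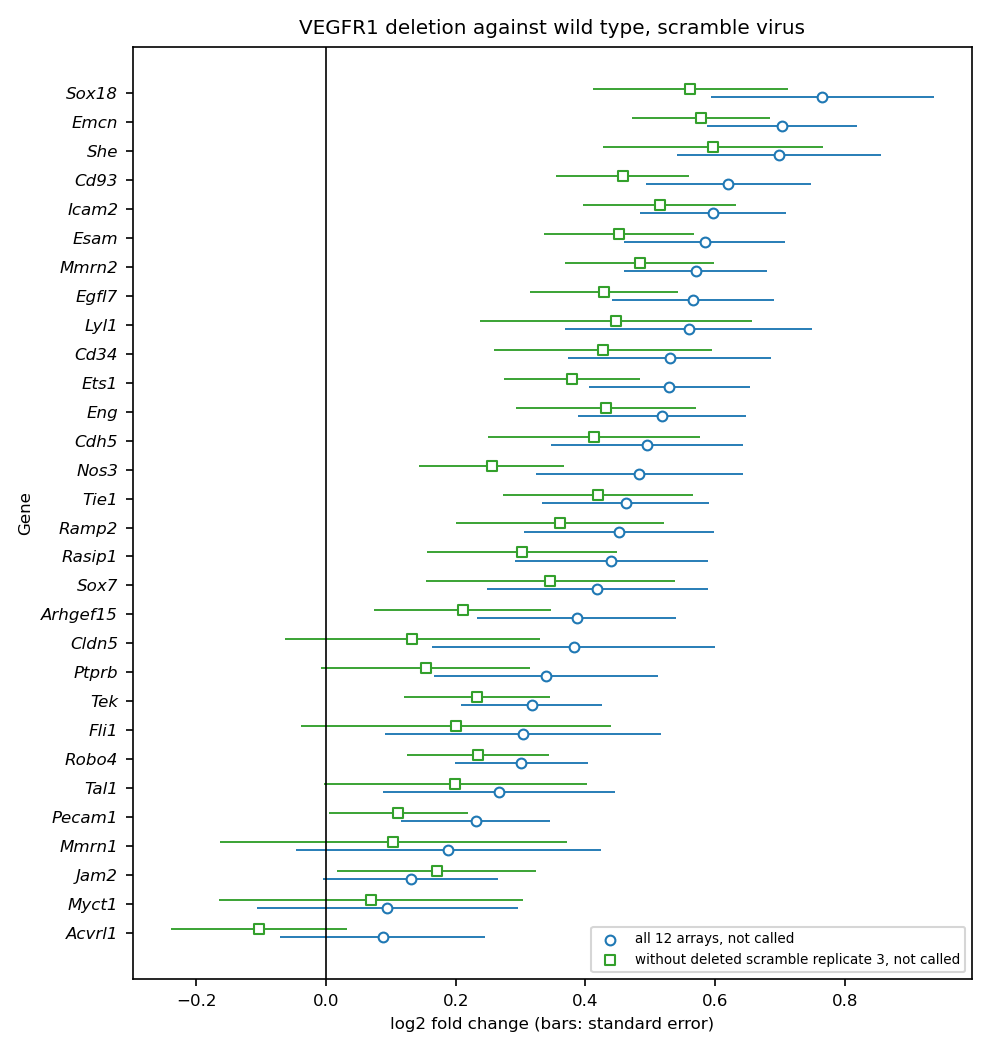
Log2 fold change of VEGFR1 deletion against wild type under scramble virus for the 30 measured endothelial genes, with all 12 arrays (circles) and without the library labelled VEGFR1 del Scramble replicate 3 (squares), with bars for the standard error. No symbol is filled because no gene of the set was called; most estimates move toward 0 without the library, and Acvrl1 crosses to -0.10.

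Under VEGF-B virus the deletion left 0 members and 0 genes of the array called by limma, with 13 members and 11% of all genes at an unadjusted p under 0.05. The estimates were above 0 for 28 of 30, against 50.5% of all genes, with a median of 0.30 against 0.00. Their values did not overlap for 17 genes, against 11% of all. Cdh5 had the highest estimate, at 0.60 (SE 0.16, adjusted p = 0.207), where WT VEGF-B read 9.56 and 9.53 and all 4 VEGFR1 del VEGF-B hearts lay above. Mmrn2 was at 0.53 (SE 0.12, adjusted p = 0.136) and Ets1 at 0.50 (SE 0.13, adjusted p = 0.207). These groups lie in different sets of the authors' table, and genotype and set cannot be told apart for them.

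Both interventions together, VEGFR1 del VEGF-B against WT Scramble, gave the highest count. Here 24 of 30 genes were called higher and 0 lower, against 11.6% and 9.43% of all genes, and the values did not overlap for 25, against 15.7%. The median log2 fold change was 0.94 against -0.03 over all genes. Leaving out any 1 array changed this count only to 23. The hearts share none of the authors' sets, so set and treatment cannot be told apart here either.

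Sox18 led, with 10.65, 10.46, 10.86 and 10.52 in VEGFR1 del VEGF-B against the WT Scramble values given above, a rise of 1.36 (SE 0.16, adjusted p = 0.000117) or 2.58-fold. Cdh5 rose by 1.25 (SE 0.14, adjusted p = 8.8e-05) from 8.85, 8.76 and 9.07 in WT Scramble. Cd93 read 11.86, 11.83, 11.88 and 11.95, a rise of 1.21 (SE 0.12, adjusted p = 5.55e-05). Nos3 rose by 1.16 (SE 0.15, adjusted p = 0.000194). In all 4 cases the highest control lay below the lowest treated heart. Of the receptors, Tek rose by 0.71, Tie1 by 0.82 and Eng by 1.06, and Ramp2 rose by 0.92. Jam2 was at -0.01 (SE 0.13, adjusted p = 0.958), the single estimate below 0, against 46.2% of all genes above it.

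The genes differed in how tightly their replicates held together. The within-group SD was lowest for Robo4 at 0.096 and highest for Mmrn1 at 0.344, with a median of 0.193 over the set and 0.174 over all genes. Fli1 (0.307), Myct1 (0.287) and Cldn5 (0.317) also stood among the least reproducible, so a change of the size seen in the rest could have been missed for them. Claudin-5 ran from 9.69 to 10.67 within VEGFR1 del Scramble alone.

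More than 1 measured probe stood for 10 members. Over all 49 probes, 16 were called higher with VEGF-B in wild type (1.42% of 20312 probes), 19 in VEGFR1 del (2.19%) and 35 for both interventions (10.3%), with 0 lower in each. The second probe of Cd93 gave 0.90 in wild type and 0.76 in VEGFR1 del, and the second Cdh5 probe gave 0.62 and 0.47. The 3 Nos3 probes lay between 0.78 and 0.88 in wild type and between 0.55 and 0.68 in VEGFR1 del. Some estimates differed from that of the probe used, from dim probes and from others. In VEGFR1 del the second Cdh5 probe, detected on all 12 arrays, was not called (limma adjusted p = 0.071). There Arhgef15 had 2 other probes detected on all 12 arrays, at 0.22 and 0.40 against 0.56, and neither was called. A further Sox7 probe (ILMN_2653251), detected on all 12 arrays, gave 0.78 in wild type and 0.50 in VEGFR1 del. It was called in neither (limma adjusted p = 0.0563 and 0.0957). Nos3 probe ILMN_2729153 was not called in VEGFR1 del (0.55, limma adjusted p = 0.0567). The remaining cases named here came from dim probes. For Robo4 the other 2 gave 0.10 and -0.28 in wild type against 0.40, but they were detected on 7 and 6 arrays. Egfl7 had 1 at -0.29 in VEGFR1 del against 0.51, detected on 6 arrays. Sox7 had 1 at -0.04 against 0.63, detected on all 12 arrays but with a signal of 110.9 to 144 before correction, near the array medians. No disagreement within a gene is read from these dim probes. The probe with the highest mean was used for each gene.

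Genes that share the cell type or the junction were read beside the set. Of 34 other endothelial genes 32 were measured, and 7 were called higher in wild type, 7 in VEGFR1 del and 19 for both interventions, where 1, Tmem88, was lower (-0.32, SE 0.10, adjusted p = 0.0464). Their medians were 0.35, 0.23 and 0.49. In wild type the smallest p belonged to the Notch receptors Notch4 (0.86, SE 0.13, adjusted p = 0.0145) and Notch1 (0.83, SE 0.13, adjusted p = 0.0145), the apelin receptor Aplnr (0.98, SE 0.18) and Tmem204 (0.88, SE 0.17). In VEGFR1 del they belonged to von Willebrand factor Vwf (0.80, SE 0.15, adjusted p = 0.0188), Notch4 (0.56, SE 0.11), the fenestral diaphragm gene Plvap (0.77, SE 0.15) and the connexin gene Gja4 (0.64, SE 0.14). Vwf was at 0.09 (SE 0.18, adjusted p = 0.862) in wild type. The interaction called 0 genes of the array, so no difference between the genotypes is read for Vwf.

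Junction proteins that are not restricted to endothelium were read next, and their difference from the set was not tested. Of 23 catenins, ZO proteins and other partners 19 were measured, with 0 called in wild type, where the median was 0.05. In VEGFR1 del 1 was called, F11r, which encodes the adhesion molecule JAM-A (0.57, SE 0.13, adjusted p = 0.0261), and the median was 0.13. For both interventions 6 of 19 were called higher, against 11.6% of all genes, with a median of 0.18, among them the afadin gene Afdn (0.57, SE 0.12), Rap1b (0.56, SE 0.12) and the beta-catenin gene Ctnnb1 (0.45, SE 0.11). Of 27 other ETS, SOX and partner factors 22 were measured. Called in both genotypes were Ets2 (0.68, SE 0.13, in wild type and 0.56, SE 0.11, in VEGFR1 del), Sox17 (1.16, SE 0.23, and 0.73, SE 0.19) and Gata2 (0.71, SE 0.16, and 0.54, SE 0.13). Sox17 and Gata2 also stand in the list of other endothelial genes. With all arrays, 0 genes of these 3 lists were called for the deletion under either virus. Without the doubted library 1 was lower, Flt1 itself, the deleted gene (-2.54, SE 0.17, adjusted p = 3.12e-05 under scramble and -2.17, SE 0.16, adjusted p = 0.000102 under VEGF-B).

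Markers of other heart cells were read on the same arrays. Of 10 pericyte genes 9 were measured, and 6 were called higher in wild type with VEGF-B, 3 in VEGFR1 del, 2 for the deletion under scramble and 8 for both interventions. Pdgfrb, the PDGF receptor of pericytes, rose by 0.99 (SE 0.16, adjusted p = 0.0145) and by 0.71 (SE 0.13, adjusted p = 0.0156) with VEGF-B in wild type and VEGFR1 del, and the 2 called for the deletion were Kcnj8 (0.83, SE 0.12) and Vtn (0.72, SE 0.11). Without the doubted library 0 pericyte genes were called for the deletion under scramble. Their summed linear signal was 3312 to 3690 in WT Scramble, 5342 and 5527 in WT VEGF-B, 4506 to 5573 in VEGFR1 del Scramble and 6112 to 6631 in VEGFR1 del VEGF-B. These ranges do not overlap with WT Scramble in any group, as for the endothelial set. Cardiomyocyte markers, 11 measured of 12, had medians of -0.03 in wild type, 0.00 in VEGFR1 del and 0.04 for both interventions, with sums of 143900 to 146400 in WT Scramble and 150700 to 160900 in VEGFR1 del VEGF-B. Among them Nppa, the atrial natriuretic peptide gene, was higher with VEGF-B in VEGFR1 del (0.98, SE 0.23, adjusted p = 0.0337) and for both interventions (1.26, SE 0.23, adjusted p = 0.00206), and the phospholamban gene Pln was lower for both interventions (-0.36, SE 0.11, adjusted p = 0.0358). The 7 smooth muscle genes measured of 8 had medians of -0.07, -0.13 and -0.08, and 1, Myh11, was lower for both interventions (-0.58, SE 0.18, adjusted p = 0.0384).

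Cardiac fibroblast genes, 11 measured of 12, had medians of -0.06 with VEGF-B in wild type, 0.09 in VEGFR1 del, -0.28 for the deletion under scramble and -0.06 for both interventions. Their sums were 12010 to 13740 in WT Scramble, 11160 to 11370 in VEGFR1 del Scramble and 11780 to 13300 in VEGFR1 del VEGF-B. With VEGF-B 0 were called in wild type and 2 were higher in VEGFR1 del, Lamc1 (0.43, SE 0.08, adjusted p = 0.0183) and Mfap5 (0.96, SE 0.20, adjusted p = 0.0233). For both interventions 3 were higher, Lamc1 (0.63), Mfap5 (0.65) and the collagen gene Col1a1 (0.92), and 3 were lower, the gelsolin gene Gsn (-0.999), the PDGF receptor gene Pdgfra (-0.55) and the lumican gene Lum (-0.53). For the deletion under scramble 0 were called, and the median was -0.18 without the doubted library.

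Immune markers were higher in part. Macrophage genes, 10 measured of 11, had a median of 0.26 in wild type and 0.38 in VEGFR1 del, with 0 and 1 called (Adgre1, 0.85, SE 0.21, adjusted p = 0.0369) and sums of 2858 to 3646 in WT Scramble and 3146 to 5429 in VEGFR1 del VEGF-B. Of 6 neutrophil genes 3 were measured, with sums of 77.4 to 118.4 and 164.4 to 299.4 in those groups. S100a8 (1.60, SE 0.32) and S100a9 (1.36, SE 0.22) were called in VEGFR1 del, and Cxcr2 was detected on no array. Of 9 T and NK cell genes 6 were measured, with sums of 137.9 to 150.6 and 182.1 to 537.6, where the highest came from VEGFR1 del VEGF-B replicate 3 alone and the group's median was 206, and Cd4 and Cd8a were detected on no array. Platelet genes, 5 measured of 7, had sums of 302.1 to 397.0 in WT Scramble. Their sums were 414.6 and 497.8 in WT VEGF-B and 270.9 to 340.9 in VEGFR1 del VEGF-B. None was called, and the median with VEGF-B was 0.35 in wild type and -0.06 in VEGFR1 del. The endocardial list of 5 summed to 1245 to 1523 in WT Scramble and 2142 to 2385 in VEGFR1 del VEGF-B. It holds Vwf and Plvap, which also stand in the list of other endothelial genes. For both interventions its estimates were split and ran from -0.57 to 1.07. Called higher were 2 of the 5 and lower 1, against 11.6% and 9.43% of all genes. The 6 lymphatic genes had 0 calls in any comparison, with medians of -0.03 in wild type and -0.24 in VEGFR1 del. Without the doubted library, 10 other endothelial, 5 ETS, SOX and partner, 4 pericyte and 3 fibroblast genes were called higher with VEGF-B in VEGFR1 del. Called higher too were 3 macrophage, 2 neutrophil and 0 T and NK cell genes, against 4.71% of all genes. The part of pericytes, immune cells or endocardium in the levels of the endothelial set was not tested.

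**Figure D5:**
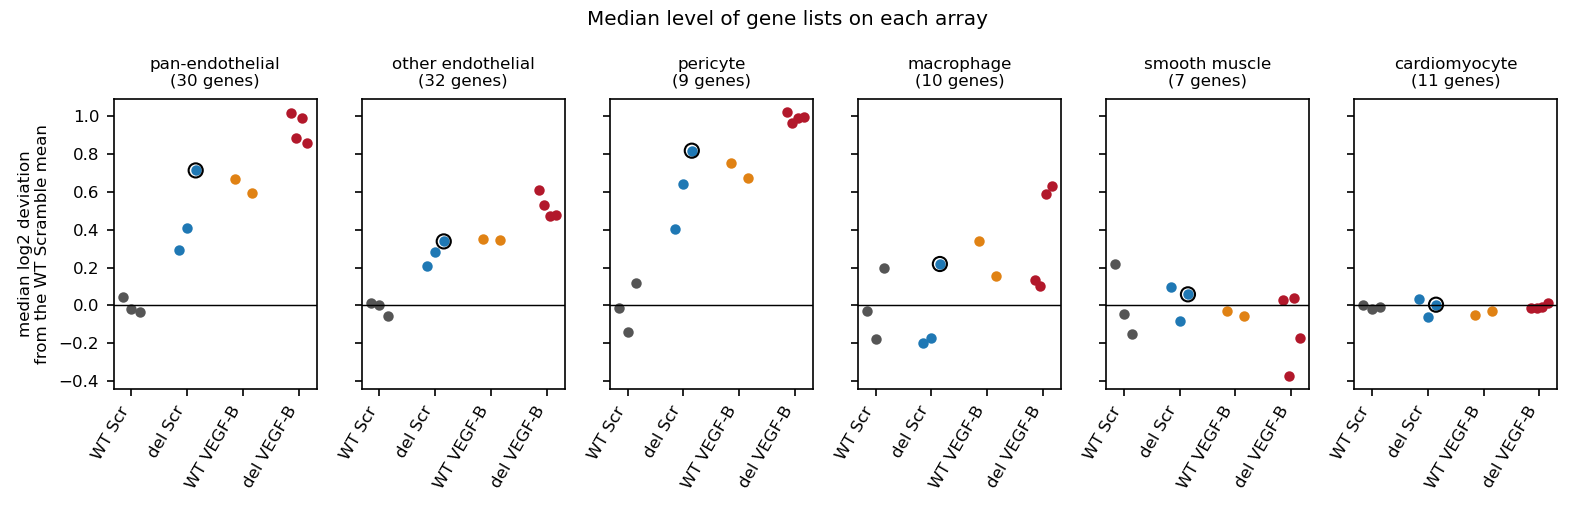
Median log2 deviation from the WT Scramble mean on each array for the endothelial set, the other endothelial genes, 4 lists of markers of other cells and the same 4 groups, with 1 point per heart and a circle around the library labelled VEGFR1 del Scramble replicate 3. The pericyte panel runs beside the endothelial panels, up to 1.02, while the cardiomyocyte points stay between -0.06 and 0.04.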

How the data were processed

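Whole-heart RNA from 12 mice was read on bead arrays with biotin-labelled cRNA. The main table deposited by the authors holds, for each probe and array, an intensity on a linear scale that is neither background-subtracted nor normalized, and, per the file headers, a p-value for detection. The authors' other deposited table gives values on a log2 scale. Their quantiles match within each of 3 sets of arrays and differ between sets. Its method is not stated, and it was used as an alternative. Its columns were matched to the arrays by sample label. For 5 of the 12 arrays, the column that correlated best with the array's own intensities was the one so labelled. The 3 sets and the runs on the authors' values therefore rest on the labels.

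Intensities were corrected and quantile normalized by limma's neqc (limma 3.58.1 under R 4.3.3), with background from the detection p-value and an offset of 16. Probes with a detection p under 0.05 on at least 2 arrays were kept (20312), and the probe with the highest mean stood for a gene, which gave 14240 genes, 11009 with a symbol. Symbols came from the platform annotation: 34885 probes have 1, 18 several and 10378 none, and unnamed probes stayed in the tests. With lmFit and eBayes, all arrays entered 1 model of group means, and in each of 6 contrasts the p-values of all genes were adjusted together (Benjamini-Hochberg). Tests are two-sided, and calls were made at an adjusted p under 0.05. Pipeline steps were tested on simulated data.

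Values on every array are given for the 4 called members with the largest change in a comparison and for the 2 with the largest change against the direction of most members. From each further list up to 4 called genes of smallest p are named, and Emcn, She, Tmem88, the marker genes with values and the members discussed for their spread or probes were named after their values were seen. The members and lists were chosen with earlier results of these data known. Labels do not say that replicate numbers pair hearts across groups. Promoter letters are from RefSeq. Plots come from matplotlib 3.10.9 under Python 3.11.15.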

Additional observations from a re-analysis of the deposited data

Results flagged for a closer look

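The signal of Ets1 in VEGFR1 del VEGF-B replicate 2 was 11.291 on the log2 scale, while the other 3 hearts of the group lay between 11.43 and 11.44, a gap of 0.94 of the group's range. It was the only 1 of 30 tests, each of a member in the group of 4 hearts, in which a heart stood this far from the others, and chance gives such a result in about 1 of 20. Ets1 is still above every VEGFR1 del Scramble heart on that array. With 30 tests, nothing about Ets1 or that heart is read from 1 flag.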

How the results depend on the processing

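No called value changed sign under any alternative run. With VEGF-B in wild type, 284 genes were called, and 430 with no background correction, 439 with an offset of 50, 553 with median scaling, 547 with the authors' values, 491 with trend and robust variance, 444 with array weights and 3 with the authors' set as a block. The 11 members became 18, 18, 18, 18, 19, 17 and 0, and their median of 0.62 became 0.47 with no correction, 0.79 with median scaling and 0.26 with the block. With VEGF-B in VEGFR1 del, 656 genes became 1069, 1019, 1050, 1770 and 1030 under the first 5 of these alternatives and 184 on the compared groups alone, where the 16 members became 2. For the deletion under scramble, 8 genes became 91 with no correction, 107 with the offset, 95 with the authors' values, 42 with detection on all arrays of a group, 13 with all probes, 194 with trend and robust variance, 5 with the set block, 5 within set 1 and 1 on the compared groups alone. Its 0 members became 7, 8, 7, 3 and 10 under no correction, the offset, the authors' values, that detection and trend. For the deletion under VEGF-B, 0 genes became 68, 26, 4, 93, 78, 10 and 3 under no correction, the offset, median scaling, the authors' values, trend, array weights and the compared groups alone, and 0 members became 1, 1 and 3 under no correction, the authors' values and trend. The cause of these shifts was not tested.

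Leaving out 1 array at a time gave 4 to 397 genes and 0 to 14 members in wild type, 28 to 1031 and 0 to 20 in VEGFR1 del, 4 to 21 and 0 to 2 for the deletion under scramble, 0 to 6 and 0 to 0 for the deletion under VEGF-B, 2135 to 3082 and 23 to 24 for both interventions, and 0 to 1 and 0 to 0 for the interaction. The members' medians ran from 0.58 to 0.67, 0.41 to 0.56, 0.35 to 0.57, 0.26 to 0.32, 0.86 to 1.00 and -0.23 to 0.0015. Where 1 WT VEGF-B heart was left, it was assumed to vary like the other groups. Of the 24 calls for both interventions, all but that of Ptprb, kept in 19 of 23 alternatives, were kept in every one.

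Whether replicate numbers pair the hearts is not stated. Over 15 same-numbered pairs the correlation of deviations ran from -0.04 to 0.11, with 1 over 0.1. This cannot decide the question in groups of 2 to 4 hearts, since the deviations of 2 hearts from their mean mirror each other. A replicate block gave 370 genes and 7 members for VEGF-B in VEGFR1 del. The median over all genes became 0.12 with median scaling in both VEGF-B comparisons, where it had been -0.02 and -0.01. The share of calls that were higher went from 61.1% to 95.9% with median scaling and 86.6% with the authors' values in VEGFR1 del, and from 55.1% to 83.2% and 80.5% for both interventions. In wild type it was 87.7% and 97.3%. Groups of 2 to 4 hearts, dim probes such as those of Erg and Myct1, and the split of the groups over the authors' sets limit what can be read.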
